A study of Mus musculus with 4 samples.

Results

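Mitochondrial ribosomal protein genes were followed in nuclei of mouse hearts at postnatal day 12. The members are the genes whose symbol starts with Mrpl or Mrps and a number, and the rule left out pseudogene names, of which there were 0. It found 78 members among 32291 features, 49 named for the large subunit (Mrpl) and 29 named for the small subunit (Mrps). All 78 had UMIs (unique molecular identifiers, each standing for 1 captured RNA molecule) in cardiomyocyte-like nuclei.

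Mitochondria keep their own ribosome, which reads the few mRNAs of the mitochondrial genome and so makes core subunits of the respiratory chain. Its RNAs come from the mitochondrial genome, but its proteins are encoded in the nucleus, made in the cytosol and imported. Cardiac muscle is dense in mitochondria, and in humans inherited defects of some of these proteins cause heart disease. The symbols do not always give the place in the ribosome: the products of Mrps18a and Mrps30 are built into the large subunit, and that of Mrps36 is also known as a subunit of the 2-oxoglutarate dehydrogenase complex. Members were grouped by symbol all the same.

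The study crossed a vector with the diet of the mother. Wild-type pups received saline (control) or AAV9-cTnT-YAP5SA at postnatal day 7. In this virus the cardiac troponin T promoter, which is active in cardiomyocytes, drives a constitutively active form of YAP, the transcriptional co-activator held back by the Hippo pathway. The mothers were on chow or a high-fat diet (HFD) for 5 days. Whole hearts gave 4 single-nucleus libraries, 1 per group. Values of 4 libraries are given in the order control on chow, YAP5SA on chow, then control on HFD, YAP5SA on HFD. The number of hearts behind a library was not stated in the labels. Because controls received saline, effects of the virus and of its YAP5SA cargo cannot be told apart. Groups rest on the titles: the treatment label names the HFD for YAP5SA on chow and chow for control on HFD, and if it holds instead, vector and diet change together. YAP5SA on chow was the male library (the Y-linked gene Ddx3y at 85.1 CPM in its cardiomyocyte-like nuclei, against at most 0.174 in the others), so the sex of the pups partly follows the vector.

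The libraries held 6977 to 11158 barcodes and 4.34e+07 to 6.12e+07 UMIs, and pairs of libraries shared 7 to 27 barcodes. Filters and doublet removal left 6048, 8068, 8018 and 10009 nuclei, of which 3536, 4781, 3005 and 5079 were cardiomyocyte-like. The cardiomyocyte-like sums held 2.33e+07, 2.73e+07, 2.05e+07 and 2.87e+07 UMIs. Yap1 stood at 136, 107, 128 and 120 CPM (UMIs per 1e6 UMIs of the class sum) there, but 3′ reads need not capture the transgene, so this does not check the labels. The clusters of control and YAP5SA cardiomyocyte-like nuclei differed. A cluster led by Cemip and Ptchd4 (cluster 27) held 0, 1006, 0 and 581 nuclei with 6 of 14 cardiomyocyte markers, and a cluster led by Gria1 held 0, 757, 0 and 352. With clusters 8 and 10 they are the YAP5SA clusters, in which over 95% of nuclei came from YAP5SA libraries. Cardiomyocyte markers summed to 57120, 37580, 60920 and 40950 CPM in the class. Among markers of other cell types there, those of endocardium (57.3, 177, 76.97 and 153 CPM), epicardium (18.1, 76.1, 16.1 and 48.7), atrial cardiomyocytes (76.96, 420, 136 and 186) and macrophages (12.7, 22.5, 19.4 and 47.7) were higher in both YAP5SA libraries, and those of pericytes (471, 179, 429 and 245) lower in both. Those of smooth muscle reached 702 CPM in YAP5SA on chow, and those of fibroblasts lay between 255 and 454 CPM. Their part in the results was not tested.

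Promoters are shown for the 4 members with the smallest p-values in the cardiomyocyte test that have an entry in the RefSeq promoter table (GRCm38.p6, which is mm10), 250 bases before to 50 after the start. Mrpl1 (chr5:96209865-96210164, + strand) and Mrpl3 (chr9:105053018-105053317, + strand) were the members that fell. Mrpl42 (chr10:95501900-95502199, - strand) and Mrpl33 (chr5:31613701-31614000, + strand) came next on either side. Capitals mark matches, on either strand, to 4 motifs, none of which overlapped here: CCGGAAG of ETS factors such as GABP, CATTCC of the TEAD factors through which YAP acts, and the longer consensus motifs of NRF1 and YY1, given by name.
Mrpl1: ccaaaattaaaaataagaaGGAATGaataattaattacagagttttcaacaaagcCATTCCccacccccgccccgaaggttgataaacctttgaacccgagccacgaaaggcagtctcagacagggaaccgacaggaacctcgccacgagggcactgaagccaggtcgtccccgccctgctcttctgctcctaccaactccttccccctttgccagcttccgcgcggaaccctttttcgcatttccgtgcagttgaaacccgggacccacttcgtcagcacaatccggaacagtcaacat
Mrpl3: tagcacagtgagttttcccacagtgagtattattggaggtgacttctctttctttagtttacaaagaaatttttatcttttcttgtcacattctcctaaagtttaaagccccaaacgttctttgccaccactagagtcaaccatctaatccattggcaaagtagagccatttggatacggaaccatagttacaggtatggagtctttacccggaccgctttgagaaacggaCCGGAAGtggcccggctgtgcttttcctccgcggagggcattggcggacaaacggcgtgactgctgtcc
Mrpl42: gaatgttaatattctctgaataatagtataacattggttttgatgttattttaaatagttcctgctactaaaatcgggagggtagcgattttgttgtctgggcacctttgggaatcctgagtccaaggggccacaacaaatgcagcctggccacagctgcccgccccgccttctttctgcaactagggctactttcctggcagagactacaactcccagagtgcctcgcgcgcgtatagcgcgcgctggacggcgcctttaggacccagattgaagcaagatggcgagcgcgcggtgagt
Mrpl33: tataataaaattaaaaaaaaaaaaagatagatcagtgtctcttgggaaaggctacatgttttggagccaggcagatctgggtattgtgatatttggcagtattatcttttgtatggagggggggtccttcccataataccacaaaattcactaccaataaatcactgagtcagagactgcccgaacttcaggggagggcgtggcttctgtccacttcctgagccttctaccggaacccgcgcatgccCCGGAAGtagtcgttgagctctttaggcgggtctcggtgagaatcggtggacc

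Mrpl3 and Mrpl33 each held 1 ETS match, from base 232 to 238 and from base 248 to 254 of the window, close to the start at base 251. Mrpl1 held 2 TEAD matches, at bases 20 to 25 and 56 to 61, and the window of Mrpl42 held none of the 4 motifs. Of the 78 members, 69 had a promoter in the table. The ETS motif was in 26 of these 69 (37.7%), against 9.93% of all genes in the table, the NRF1 motif in 13 (18.8% against 5.19%) and the YY1 motif in 5 (7.25% against 0.755%). The TEAD motif was in 8 (11.6%, against 16.6% of all genes). A match describes letters in these windows and shows no binding.

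The first question was how much mitoribosome RNA cardiomyocytes held with and without YAP5SA. In cardiomyocyte-like sums the 49 large-subunit genes together stood at 964, 752, 905 and 875 CPM, so both YAP5SA libraries were below both controls. The 29 small-subunit genes stood at 774, 647, 726 and 752 CPM, and the arms overlapped. On chow the large-subunit log2 fold of YAP5SA over control was −0.36 (95% interval −0.39 to −0.33) and the small-subunit log2 fold −0.26 (−0.29 to −0.23). On HFD they were −0.05 (−0.08 to −0.02) and 0.05 (0.02 to 0.08). These intervals cover counting error only, and with 1 library against 1 no test was made. The chow folds also compare a male with a female library.

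The fold on HFD depends on the scaling. TMM scaling, which centres on the bulk of genes, moves every HFD fold by −0.18 and every chow fold by 0.04 on the log2 scale. With it the large subunit stood at −0.32 on chow and −0.23 on HFD and the small subunit at −0.22 and −0.13, so the small-subunit sign on HFD turns. The value without clusters made up almost wholly of YAP5SA nuclei turned the other way, to 0.07 for the large subunit on HFD. The chow direction held under each of these alternatives.

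The share of member UMIs that fell to large-subunit genes needs no scaling. It was 55.4% and 55.5% in the control libraries on chow and HFD and 53.8% in each YAP5SA library, so the arms did not overlap. Set against other gene groups in the same sums, members made up 36.5, 45.9, 34.1 and 44.1 UMIs per 100 UMIs of nuclear-encoded respiratory chain subunits, higher in both YAP5SA libraries. Per 100 UMIs of cytosolic ribosomal protein genes they made up 75.9, 39.6, 73.8 and 51.3, lower in both YAP5SA libraries.

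**Figure D1:**
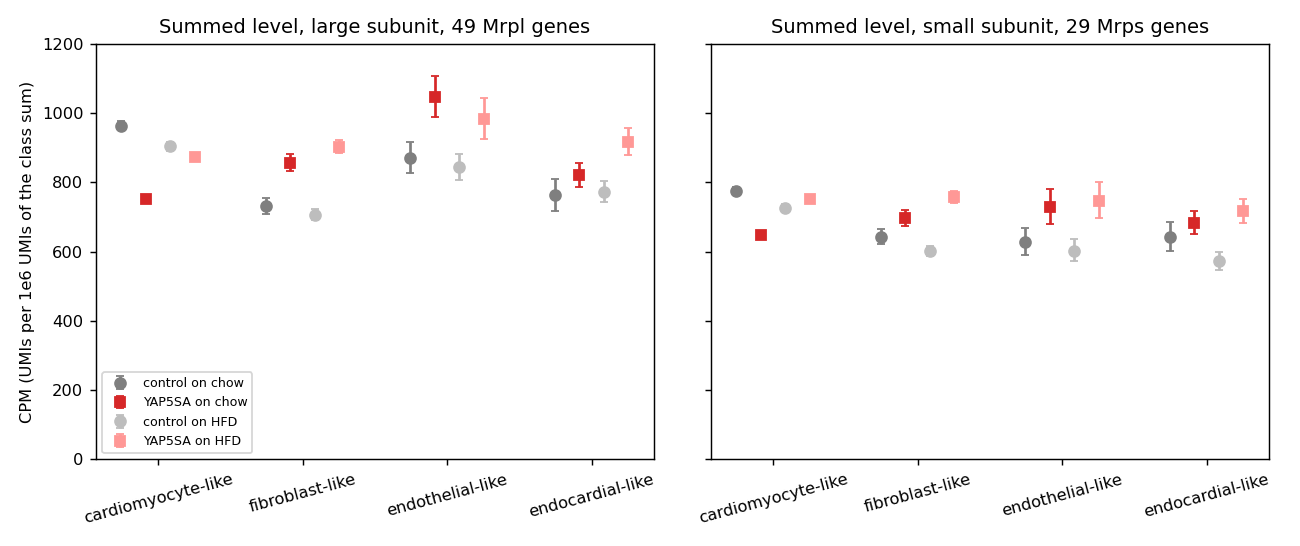
Summed CPM of large-subunit (left) and small-subunit (right) genes in 4 cell classes; each point is 1 library (circles control, squares YAP5SA) with its exact Poisson 95% interval. In cardiomyocyte-like sums the YAP5SA libraries lie lowest for the large subunit (752 and 875 CPM), while in fibroblast-like sums they lie highest (858 and 904 CPM).

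Single members changed little beyond the spread between libraries. When the diets were pooled to give 2 libraries per arm, 2 of 78 members fell and 0 rose in YAP5SA cardiomyocyte-like sums (edgeR quasi-likelihood test, Benjamini-Hochberg adjusted p under 0.05 over 16899 genes). That is 2.56% of members, against 4.39% of all genes tested that fell and 7.99% that rose, so calls were no more frequent among members than over all genes. At an unadjusted p under 0.05, 12 members were lower and 2 higher (15.4% and 2.56%, against 12.6% and 17.3% of all genes). The median log2 fold over the 78 members was −0.20, against 0.04 over all genes, and 51 were below 0. The 2 libraries of an arm differ in diet, and their animals are not told apart, so the p-values measure only the spread between these libraries.

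Both members that fell are large-subunit genes. Mrpl1, whose product lies in the mobile stalk beside the exit site for transfer RNA (ENSMUSG00000029486, chromosome 5, 96209493 to 96266727, mm10), stood at 77.3, 48.1, 78.9 and 46.4 CPM from 1802, 1310, 1615 and 1332 UMIs. Both YAP5SA libraries were well below both controls and the diets were alike. It fell by 0.80 on the log2 scale (SE 0.17, adjusted p = 0.0327, edgeR). Mrpl3, a protein near the peptidyl transferase centre whose human defect causes a cardiomyopathy (ENSMUSG00000032563, chromosome 9, 105053239 to 105079888), stood at 63.1, 30.6, 61.9 and 42.7 CPM. It was lowest in YAP5SA on chow, the arms did not overlap, and it fell by 0.85 (SE 0.19, adjusted p = 0.0356, edgeR). Leaving out 1 library leaves a lone library in its arm, which is then assumed to vary like the others. Neither call held in edgeR without control on chow (adjusted p = 0.101 and 0.102) or without control on HFD (0.171 and 0.131), and neither held without the YAP5SA clusters (0.125 and 0.0678) or without the Cemip-led cluster alone (0.0722 and 0.0758). Mrpl1 did not pass without YAP5SA on HFD (0.0512), nor Mrpl3 without YAP5SA on chow (0.0530) or with total UMIs as the only scaling (0.0673).

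**Figure D2:**
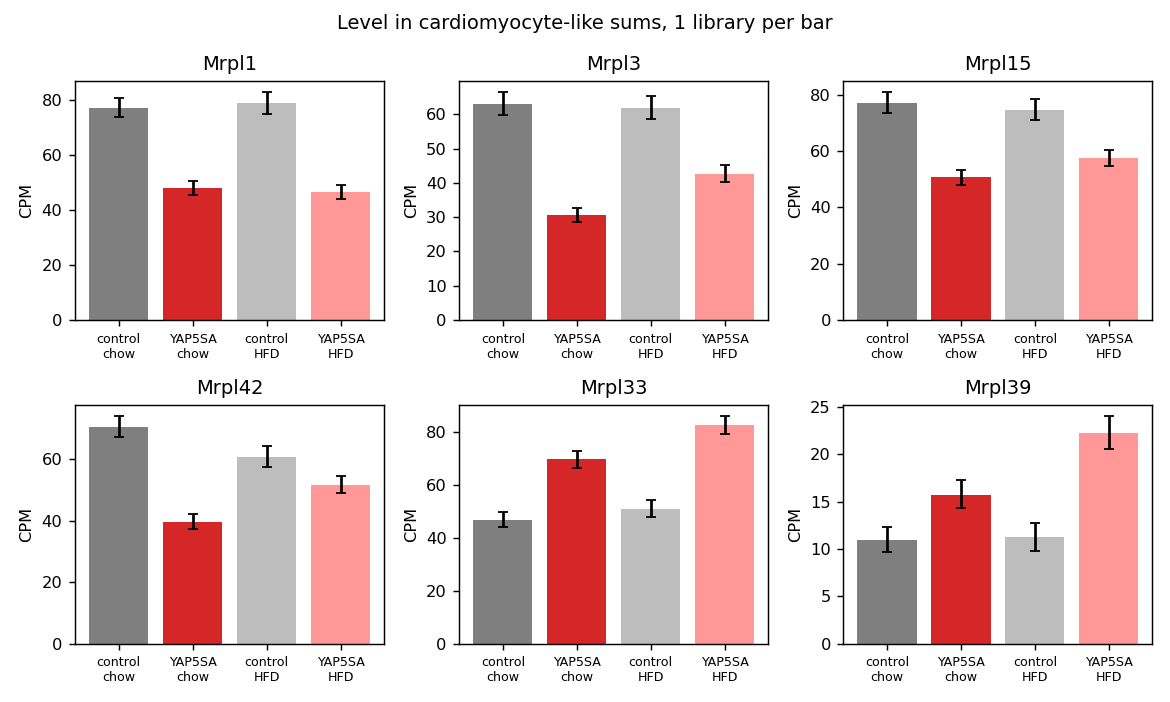
CPM of 6 members in cardiomyocyte-like sums, 1 bar per library with its exact Poisson 95% interval. Mrpl1, Mrpl3, Mrpl15 and Mrpl42 are lower in both YAP5SA libraries and Mrpl33 and Mrpl39 higher, and Mrpl1 and Mrpl3 passed the test.

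Other members of the large subunit were lower in both YAP5SA libraries but did not pass. Mrpl15 (chromosome 1, 4773206 to 4785739) stood at 77.2, 50.7, 74.7 and 57.5 CPM, and its log2 fold was −0.56 (SE 0.16, adjusted p = 0.0670, edgeR). Mrpl42 (chromosome 10, 95480805 to 95501940) stood at 70.4, 39.7, 60.6 and 51.7 CPM, with −0.60 (SE 0.18, adjusted p = 0.0766, edgeR). Both had non-overlapping arms, with the lower value in YAP5SA on chow. Mrpl12, which in human cells also binds the mitochondrial RNA polymerase, stood at 14.3, 11.8, 13.3 and 10.2 CPM, a small difference in the same direction. Mrpl27 stood at 12.6, 8.99, 14.1 and 8.82 CPM, while Mrpl55 stood at 14.1, 5.72, 11.4 and 11.4 CPM, so its gap was found on chow.

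A few members were higher. Mrpl33 (chromosome 5, 31596935 to 31664384) stood at 46.8, 69.5, 51.0 and 82.4 CPM, and its log2 fold was 0.56 (SE 0.17, adjusted p = 0.0838, edgeR). It lay above control on both diets but did not pass. In GENCODE its span overlaps Rbks on the other strand and Gm43809 on its own, and strand use in counting is not given, so its count is uncertain. Mrpl39 stood at 10.9, 15.7, 11.2 and 22.2 CPM, with 0.69 (SE 0.22, adjusted p = 0.0916, edgeR). Mrpl52 stood at 17.4, 23.0, 14.5 and 20.7 CPM and Mrpl54 at 8.54, 11.6, 9.33 and 11.7 CPM, again without overlap and without passing.

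**Figure D3:**
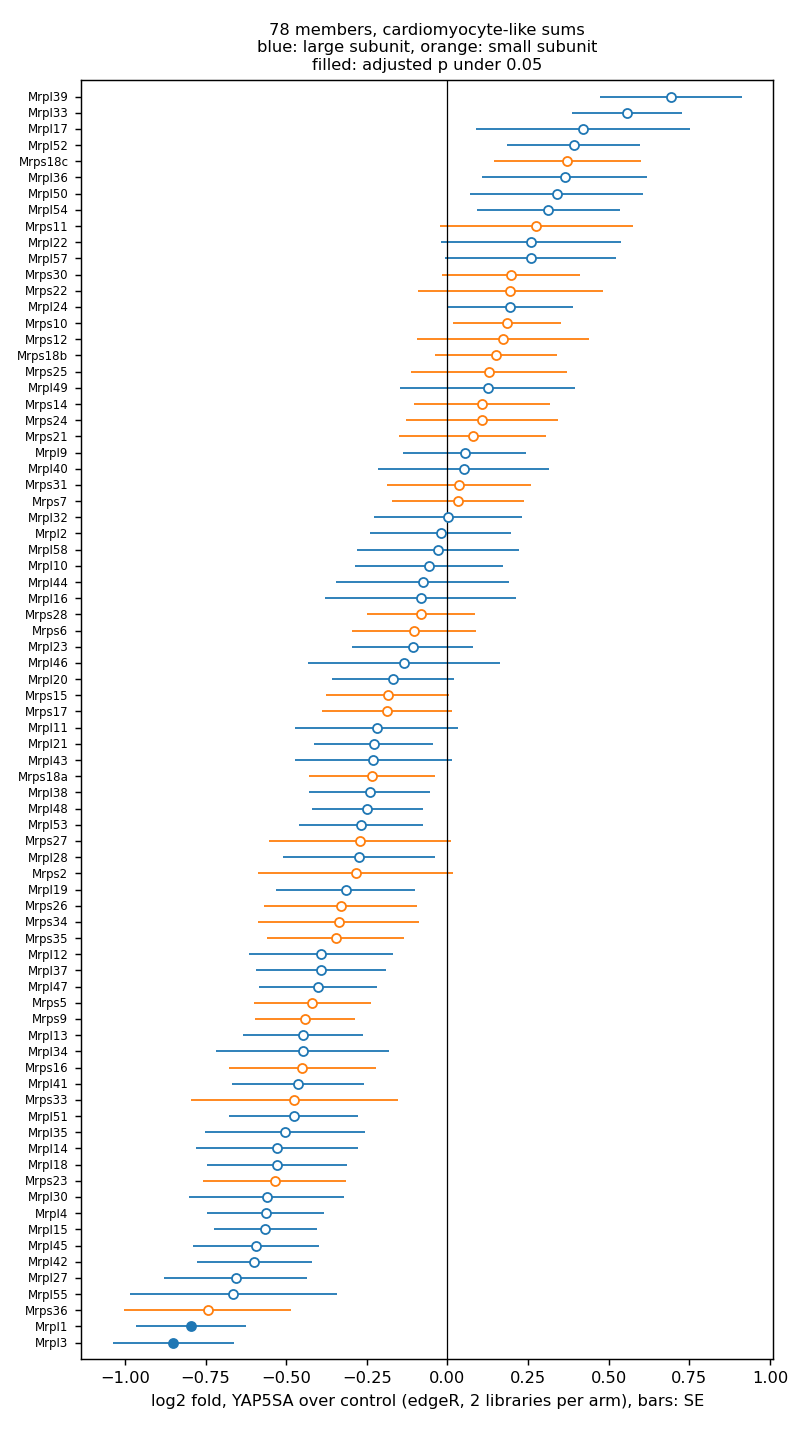
log2 fold of YAP5SA over control with its SE for all 78 members in cardiomyocyte-like sums, ordered by fold (edgeR, 2 libraries per arm; blue large subunit, orange small subunit). The 2 filled points, Mrpl1 and Mrpl3, are the members past an adjusted p of 0.05.

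Small-subunit genes were mixed, and 0 of 29 passed in edgeR (against 4.39% of all genes lower and 7.99% higher). At an unadjusted p under 0.05, 3 were lower and 0 higher (10.3% and 0%, against 12.6% and 17.3% of all genes). Mrps28, the member with the highest CPM, stood at 112, 115, 119 and 115 CPM, nearly level across libraries. Mrps9 stood at 93.1, 66.1, 87.5 and 73.9 CPM, lower in both YAP5SA libraries (log2 fold −0.44, SE 0.16, adjusted p = 0.116, edgeR). Mrps5 stood at 74.3, 47.8, 69.2 and 65.7 CPM and Mrps35 at 43.2, 26.2, 34.6 and 38.5 CPM, both lowest in YAP5SA on chow. Mrps10 stood at 38.0, 40.1, 32.9 and 44.6 CPM. Mrps36 stood at 26.9, 11.4, 21.7 and 19.4 CPM, so its log2 fold was −1.24 on chow but −0.16 on HFD.

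The Mrps18 paralogues, 3 related proteins, did not all lean the same way. Mrps18a, built into the large subunit, stood at 17.98, 16.3, 20.0 and 17.8 CPM, slightly lower with YAP5SA on both diets. Mrps18b stood at 26.7, 29.8, 22.7 and 27.6 CPM and Mrps18c at 10.0, 10.8, 8.89 and 15.1 CPM, both higher in both YAP5SA libraries. None of these 3 passed (adjusted p = 0.476, 0.652 and 0.329, edgeR).

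Levels of members ranged from 4.08 (Mrps2) to 115 CPM (Mrps28) as means over the 4 cardiomyocyte-like sums, with a median of 15.1. CPM is not per length, and in nuclei long genes can gather more reads: over the 78 members, mean CPM and gene span (789 to 121773 bases) had a Spearman rho of 0.53, given as a description. The 10 members with the most UMIs held 40.0%, 38.2%, 41.1% and 38.0% of member UMIs. Of the 78, 32 overlap a gene on the other strand and 6 a gene on the same strand. The called members Mrpl3 (Gm47106) and Mrps22 (Gm37637) overlap one on the other strand, so their counts are uncertain as well. So do Mrpl27 (Eme1), Mrpl12 (Gm16755), Mrps18a (Rsph9) and Mrps18b (Gm16279). The called members Mrpl1 and Mrpl52 overlap none.

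Taking each diet apart, 58 members had a mean CPM of at least 10, 34 large and 24 small, and folds of at least 1.5 were counted; the other 20 were below that level and left out. On chow 16 of 58 were lower in YAP5SA and 0 higher (27.6% and 0%, against 19% and 16.5% of all 8472 genes). Of these 16, 10 were large-subunit and 6 small-subunit genes, and the median log2 fold was −0.34, against −0.06 over all genes. Member log2 folds ran from −1.30 (Mrpl55) to 0.57 (Mrpl33) on chow and from −0.77 (Mrpl1) to 0.98 (Mrpl39) on HFD. On HFD 3 were lower and 5 higher (5.17% and 8.62%, against 9.82% and 22.2% of all genes), with a median of −0.01 against 0.13. With TMM scaling the HFD counts were 6 lower and 1 higher. Shares over all genes are not given with that scaling, so these counts have no background to be read against. The genes lower on HFD were Mrpl1, Mrpl27 and Mrps27, and those higher were Mrpl33, Mrpl39, Mrpl40, Mrps18c and Mrps25, of which Mrps27, Mrpl40 and Mrps25 are named after their values were seen. Mrpl1 was lower by this measure on both diets, and 0 members lay 1.5-fold apart in opposite directions on the 2 diets.

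**Figure D4:**
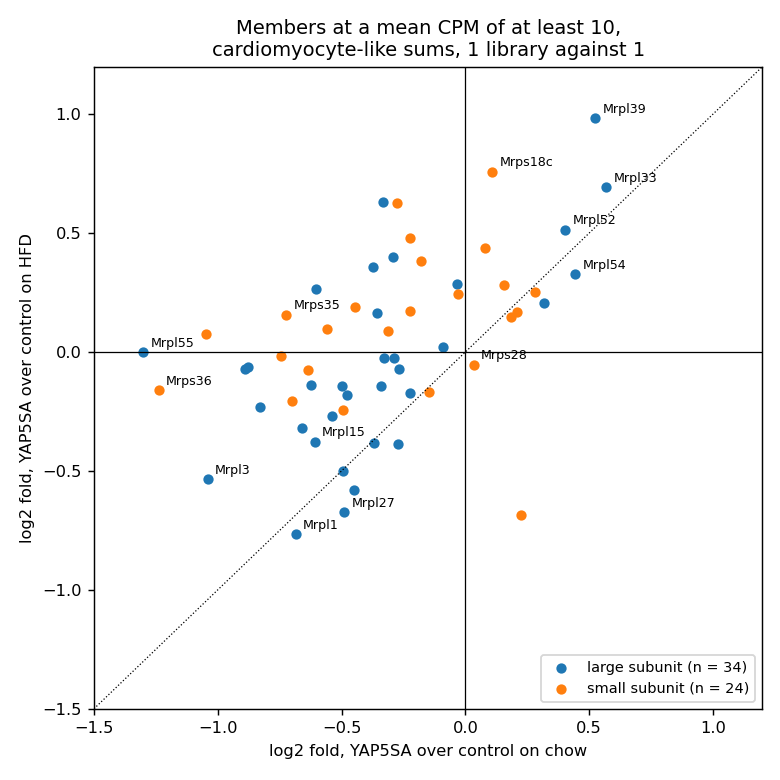
log2 fold of YAP5SA over control on chow (horizontal) and on HFD (vertical) for the 58 members with a mean CPM of 10 or more in cardiomyocyte-like sums; the dotted line marks equal folds. On chow 45 of the 58 lie below 0 and on HFD 30, and Mrpl1, Mrpl3 and Mrpl27 are low on both.

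Both YAP5SA libraries were below both controls for 28 of the 58 members (48.3%, against 29.3% of all genes), above them for 9 (15.5%, against 34.9%) and overlapped for 21. Among large-subunit genes 22 of 34 (64.7%) were lower and 5 higher, and among small-subunit genes 6 of 24 (25%) were lower and 4 higher. Whether the subunits differ was not tested.

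The diet contrasts were taken within each arm. In controls, 2 of 58 were at least 1.5-fold lower on HFD than on chow and 0 higher (against 4.08% and 4% of all genes). In YAP5SA 7 were higher and 0 lower (against 12.7% and 4.72%), among them Mrpl55 with a log2 fold of 0.996 and Mrps36 with 0.77. With the vector as a term, 0 of 78 members and 0% of 16899 genes in either direction passed the diet test in edgeR. At an unadjusted p under 0.05 that test had 0 members, and 501 genes were higher and 223 lower. These contrasts rest on the titles' diets, and the one in YAP5SA also compares a female library on HFD with a male one on chow.

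The cell classes differed in where members stood. All members together stood at 1738, 1399, 1630 and 1627 CPM in cardiomyocyte-like sums, 1376, 1554, 1309 and 1662 in fibroblast-like sums, 1500, 1775, 1448 and 1730 in endothelial-like sums and 1406, 1505, 1345 and 1635 in endocardial-like sums. Cardiomyocyte-like sums were thus the highest of the 4 classes in both control libraries and the lowest in both YAP5SA libraries. In YAP5SA on HFD the cardiomyocyte-like value (95% interval 1612 to 1642) and the endocardial-like value (1584 to 1687) did not differ beyond counting error. Without the YAP5SA clusters the cardiomyocyte-like values were 1739, 1505, 1630 and 1777, so they were then not the lowest on HFD.

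In fibroblast-like sums, from 1097, 1238, 2166 and 2308 nuclei, members were higher with YAP5SA. The large subunit stood at 732, 858, 707 and 904 CPM and the small subunit at 644, 696, 603 and 759 CPM, with both YAP5SA libraries above both controls. The folds depend on the scaling: on chow the log2 fold was 0.23 for the large and 0.11 for the small subunit, but 0.14 and 0.02 with TMM scaling. On HFD it was 0.35 and 0.33, and 0.20 and 0.18 with TMM scaling. Of 55 members with a mean CPM of 10 or more, 35 were higher in both YAP5SA libraries and 1 lower (63.6% and 1.82%, against 40.1% and 21.9% of all genes). In edgeR 2 of 78 members rose and 0 fell (2.56% and 0%, against 6.61% and 5.47% of 15362 genes), with a median log2 fold of 0.14 against 0.01 over all genes.

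The 2 were Mrpl52 and Mrps22. Mrpl52 (chromosome 14, 54426909 to 54429756) stood at 29.4, 54.1, 28.7 and 50.3 CPM in fibroblast-like sums and rose by 0.72 on the log2 scale (SE 0.16, adjusted p = 0.0236, edgeR). Mrps22, whose human defect impairs the small subunit and can involve the heart (chromosome 9, 98588730 to 98601660), stood at 11.4, 19.1, 11.3 and 24.1 CPM and rose by 0.81 (SE 0.21, adjusted p = 0.0415, edgeR). Without control on chow or without control on HFD 0 members rose, without YAP5SA on HFD 1 (against 7.9% of all genes) and without YAP5SA on chow 7 (8.97%, against 10.7% of all genes). Mrpl1 (45.5, 45.3, 45.8 and 39.9 CPM) and Mrpl3 (29.6, 26.8, 25.1 and 26.3 CPM) stood nearly level in fibroblast-like sums. The arms lay largely in different fibroblast-like clusters: one led by Tnc and Col8a1 held 28, 640, 54 and 1005 nuclei, one led by Scara5 and Pcsk6 held 222, 9, 638 and 68, one led by Negr1 held 683, 172, 1106 and 453, and a dividing one led by Diaph3 and Top2a held 67, 319, 104 and 595. Cardiomyocyte markers summed to 2050, 1290, 2433 and 1570 CPM in the class. The mitochondrial genome gave 0.811%, 0.535%, 0.729% and 0.384% of its UMIs, lower in both YAP5SA libraries, and 9 of 13 mitochondrially encoded mRNAs fell in the same edgeR test. Their part in these values was not tested.

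**Figure D5:**
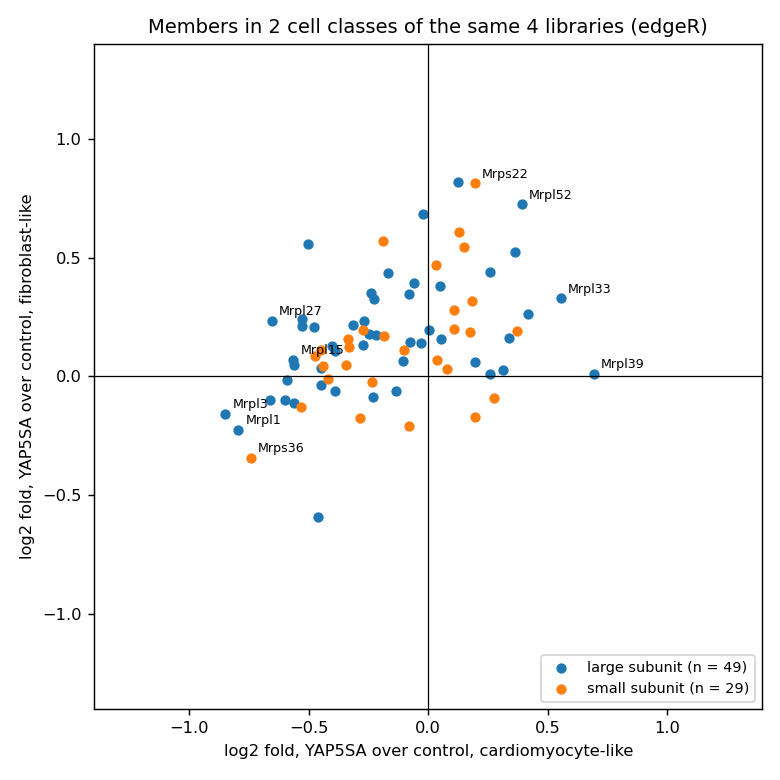
log2 fold of YAP5SA over control for the 78 members in cardiomyocyte-like (horizontal) and fibroblast-like (vertical) sums (edgeR); both axes come from the same 4 libraries. In fibroblast-like sums 59 of 78 lie above 0 and in cardiomyocyte-like sums 27.

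Endothelial-like and endocardial-like sums leaned the same way as fibroblast-like sums. The large subunit stood at 871, 1047, 845 and 982 CPM in endothelial-like and 763, 821, 773 and 918 CPM in endocardial-like sums, with both YAP5SA libraries above both controls. The small subunit stood at 629, 729, 603 and 748 CPM and at 643, 684, 572 and 717 CPM, in the same order of arms. Of members with a mean CPM of 10 or more, 28 of 66 in endothelial-like sums were above both controls in both YAP5SA libraries and 5 below (against 26% and 19.9% of all genes), and 22 and 2 of 58 in endocardial-like sums (against 24% and 19.9%). In the endothelial test, with 371 to 599 nuclei per library, 0 of 76 members passed in edgeR (against 0.0738% of 10844 genes higher and 0.0922% lower), and 5 were higher and 0 lower at an unadjusted p under 0.05 (6.58% and 0%, against 6.73% and 7.14% of all genes). Cardiomyocyte markers were lower in both YAP5SA libraries in these classes, at 3307, 1614, 2543 and 1746 CPM in endothelial-like and 4663, 1340, 3236 and 1425 CPM in endocardial-like sums. The mitochondrial share of UMIs was 2.16%, 1.80%, 2.04% and 1.18% in endothelial-like and 2.89%, 2.47%, 2.46% and 2.24% in endocardial-like sums. Their part in the member levels was not tested.

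The difference between cell classes was then tested itself. The model held library, class and the interaction of class with the vector. For a YAP5SA effect that differs between cardiomyocyte-like and fibroblast-like sums, 0 of 78 members were called (edgeR, against 4.32% of 17912 genes lower and 7.97% higher). This does not show that the effects were equal. At an unadjusted p under 0.05, 23 were lower and 1 higher (29.5% and 1.28%, against 11.2% and 15.5% of all genes). The median of this difference was −0.37 on the log2 scale, against 0.03 over all genes, and 64 of 78 were below 0. With DESeq2 size factors 3 members passed, and with no filter on low counts 5. For 50 members the mean CPM was 10 or more in both classes. Of these, 11 were lower in both YAP5SA libraries in cardiomyocyte-like sums and higher in both in fibroblast-like sums. That was 22%, against 6.24% of 7643 genes. In the opposite direction there were 0 members (0%, against 5.27% of these genes). The 11 include Mrpl15, Mrpl27 and Mrps9.

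Genes that work with the mitoribosome were set beside the members in cardiomyocyte-like sums. Over all genes in this test 4.39% fell and 7.99% rose, and 12.6% were lower at an unadjusted p under 0.05. Of 5 mitoribosomal proteins with other names, such as Dap3 and Ptcd3, 0 passed in edgeR, with 1 lower at an unadjusted p under 0.05. Of 26 genes of mitoribosome assembly and rRNA modification 1 fell (3.85%), the rRNA methyltransferase gene Mrm1. Mrm1 stood at 12.4, 6.60, 15.2 and 6.42 CPM (log2 fold −1.16, SE 0.24, adjusted p = 0.0313, edgeR). Of 14 mitochondrial translation factor genes 0 passed, with 5 lower at an unadjusted p under 0.05 and a median log2 fold of −0.40. Of 20 genes that charge mitochondrial transfer RNAs 2 fell (10%), Qrsl1 and Fars2. Of 22 genes of mitochondrial DNA transcription and RNA processing 3 fell (13.6%), Lrpprc, Grsf1 and Ptcd2. Lrpprc, which keeps mitochondrial mRNAs stable, stood at 182, 98.5, 163 and 91.7 CPM and fell by 0.93 (SE 0.17, adjusted p = 0.0214, edgeR). The 13 mRNAs encoded by the mitochondrial genome, which the mitoribosome reads, had a median of −0.17 and 0 passed, with 0 at an unadjusted p under 0.05. These mRNAs are made in mitochondria and not in the nucleus, and they made up 0.113% to 0.135% of UMIs in the cardiomyocyte-like sums.

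Respiratory chain subunits and cytosolic ribosomal proteins bracketed the members. Of 72 nuclear-encoded respiratory chain genes tested 20 fell, among them Cox7b and Sdhb, and 0 rose (27.8% and 0%, against 4.39% and 7.99% of all genes, median −0.55). Of 82 cytosolic ribosomal protein genes 4 rose and 1 fell (4.88% and 1.22%, against 7.99% and 4.39% of all genes, median 0.55). Calls were thus no more frequent there than over all genes. Rpl6, Rps20, Rpl10a and Rps26 rose, and Rpl3l, the striated muscle paralogue of Rpl3, fell. At an unadjusted p under 0.05, 55 were higher and 1 lower (67.1% and 1.22%, against 17.3% and 12.6% of all genes). The member median of −0.20 lay between these medians. No test was made of the difference between lists.

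Regulators of nuclear-encoded mitochondrial genes moved in both directions. Of 10 such genes 2 rose and 2 fell (20% each, against 7.99% and 4.39% of all genes). Esrra, which encodes the nuclear receptor ERRα, stood at 140, 65.5, 139 and 69.2 CPM and fell by 1.12 (SE 0.16, adjusted p = 0.00927, edgeR), and the co-activator gene Ppargc1b fell by 0.91 (SE 0.18, adjusted p = 0.0258, edgeR). Myc, at 2.02, 7.67, 1.32 and 6.52 CPM, rose by 2.02 on the log2 scale (SE 0.35, adjusted p = 0.0172, edgeR), and Mycn rose by 2.92 (SE 0.59, adjusted p = 0.0280, edgeR) from at most 0.815 CPM in controls. Ppargc1a stood at 679, 396, 1900 and 531 CPM and did not pass (adjusted p = 0.0795, edgeR), nor did Pprc1 at 13.5, 27.8, 14.3 and 19.1 CPM (0.142). Nrf1, Yy1, Gabpa and Gabpb1, which encode the factors whose motifs were counted in the promoters, had log2 folds of −0.12, 0.19, −0.33 and −0.02 and did not pass.

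Member levels also followed the clusters of the cardiomyocyte-like class. All members together stood at 1253 CPM in the Cemip-led cluster and 1360 CPM in the Gria1-led cluster, both made up of YAP5SA nuclei. Clusters 8 and 10, where YAP5SA libraries gave 98.0% and 99.2% of nuclei, stood at 1717 and 1516 CPM. Clusters 7 and 9, mostly of control nuclei, stood at 1720 and 1604 CPM, and the mixed clusters 6, 5 and 21 (the last atrial-like) at 1763, 1472 and 1518 CPM. Cluster 8 held 23, 115, 6 and 1315 nuclei, mostly from YAP5SA on HFD. Taken by library, the Cemip-led and Gria1-led clusters and clusters 10 and 8 stood at 1224, 1333, 1461 and 1610 CPM in YAP5SA on chow. In YAP5SA on HFD they stood at 1298, 1416, 1571 and 1733 CPM. YAP5SA clusters were thus found at both low and high levels within each YAP5SA library, and each had the higher CPM on HFD. These CPM carry no TMM scaling, which for the whole class moves log2 folds of HFD over chow in YAP5SA by −0.14. The HFD library was also female and the chow library male. Within clusters that held at least 100 nuclei of both arms, the chow log2 fold of all members was −0.33 (95% interval −0.41 to −0.24) in cluster 5, −0.15 (−0.20 to −0.10) in cluster 6, −0.09 (−0.16 to −0.02) in cluster 7 and −0.27 (−0.36 to −0.18) in cluster 9. On HFD it was 0.02 (−0.06 to 0.11) in cluster 6 and 0.16 (0.08 to 0.25) in cluster 9. The clusters were drawn from expression, so these values are a description. The folds are also without TMM scaling, which for the whole class moves HFD folds by −0.18 and chow folds by 0.04. On chow they compare a male with a female library.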

How the data were processed

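Nuclei of mouse hearts were sequenced in 4 libraries with the 10x Genomics 3′ v3 kit on a NovaSeq system, per the labels' protocols. The deposited matrices hold raw UMI counts per gene and nucleus; Cell Ranger 7.1.0 and mm10 are named in the submitters' processing notes, and intronic read use, strand and annotation are not stated there. Coordinates came from GENCODE vM21 by gene identifier. Nuclei with at least 500 genes and at most 5% mitochondrial UMIs were kept, and doublets were removed with Scrublet; where it marked under 0.5%, the top scores at 0.8% per 1000 nuclei were removed. Nuclei were clustered together without integration (scanpy 1.11.5, Python 3.11.15; 3000 variable genes, 30 components, 15 neighbours, Leiden resolution 1). Clusters were named from fixed markers, present in at least 10% of nuclei at 0.25 of their highest cluster CPM, where at least 4 markers and a share of 0.4 were present. The naming limits were chosen with the data in view; unnamed nuclei made up 3.98% to 7.95% of each library.

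UMIs were summed per class and library. Levels are CPM with exact Poisson 95% intervals; folds of 1 library to 1 use a prior of 0.5 counts and exact conditional binomial 95% intervals (scipy 1.17.1). Intervals cover counting error only. Tests over 2 libraries per arm used edgeR 4.0.16 (R 4.3.3; TMM, filterByExpr, quasi-likelihood, adjusted p under 0.05), with DESeq2 1.42.0 as an alternative. On simulated counts for the cardiomyocyte test (16899 genes), 79 of 100 genes changed 2-fold (log2 of 1) were called, and 9 unchanged ones. Named members are those called in any test, the 10 with most UMIs, the 5 with the largest mean folds each way, and Mrps18a, Mrps18b, Mrps18c, Mrps36 and Mrpl12. Members and lists were chosen with earlier results of these data known.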

Additional observations from a re-analysis of the deposited data

Results flagged for a closer look

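Summed large-subunit and all-member levels were lower in both YAP5SA libraries than in both controls in cardiomyocyte-like sums. They were higher in both in the other 3 classes, and this difference between classes was not tested as a sum. In endocardial-like sums the large-subunit log2 fold on chow did not exceed counting error (0.105, 95% interval −0.002 to 0.214). The cardiomyocyte-like side rests mainly on chow, where YAP5SA was a male and control a female library, so vector and sex cannot be told apart. On HFD, where neither library was male, the log2 fold of all members was −0.003 (95% interval −0.023 to 0.017). Without the YAP5SA clusters they stood at 1739, 1505, 1630 and 1777 CPM, so on HFD YAP5SA was then the higher, as in the other classes. Over both diets, the large-subunit log2 ratio of YAP5SA to control was −0.20 in cardiomyocyte-like sums, against 0.29 in fibroblast-like, 0.24 in endothelial-like and 0.18 in endocardial-like sums. For all members it was −0.15, against 0.26, 0.25 and 0.19 in the same order. With TMM scaling the log2 fold of all members in cardiomyocyte-like sums was −0.28 for chow and −0.19 for HFD, and in fibroblast-like sums 0.08 and 0.19. Counted gene by gene, 11 of 50 members were lower in both YAP5SA libraries in cardiomyocyte-like sums and higher in both in fibroblast-like sums. That was 22%, against 6.24% of 7643 genes. The gene-level test of the difference called 0 members in edgeR, with 23 lower and 1 higher at an unadjusted p under 0.05 (29.5% and 1.28%, against 11.2% and 15.5% of all genes).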

How the results depend on the processing

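No paired analysis was possible because every group holds 1 library with replicate number 1, so the numbers pair nothing; with diet as a term in place of a replicate block, 2 members were lower, as without it. In the cardiomyocyte test 2 members were lower, and 0 to 4 on leaving out a library, 1 with total UMIs only, and 0 without clusters over 95% from YAP5SA libraries or without cluster 27 (the last chosen after seeing the data). The other alternatives also gave 2, and under every alternative run 0 members were higher. Over all genes 742 were lower and 1350 higher, against 1252 and 2053 with no filter, 452 lower with total UMIs only, 1150 lower in a DESeq2 Wald test, 232 and 650 without clusters over 95% from YAP5SA libraries, 265 and 613 without cluster 27, and 338 to 987 lower on leaving out a library. A lone library left in an arm was assumed to vary like the others. In fibroblast-like sums 0 to 7 members were higher on leaving out a library, in endothelial-like sums 0 to 2. For the difference between classes 3 members were lower with DESeq2 size factors, 5 with no filter and 0 to 6 on leaving out a library. For the diet test no fit without a library was made, since none leaves residual degrees of freedom.

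Counts of members 1.5-fold apart moved as follows, and shares over all genes are not given for these alternatives. On chow 1 was higher with TMM scaling, and 4 were lower at 2-fold and 7 without clusters over 95% from YAP5SA libraries. On HFD 9 were higher with no CPM floor and 1 with TMM scaling, 6 were lower with TMM scaling, and 0 were higher or lower at 2-fold. For HFD over chow, 0 were lower in control with TMM scaling and at 2-fold, and in YAP5SA 3 were higher with TMM scaling, 1 was higher at 2-fold and 1 was lower with TMM scaling.

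The large-subunit log2 fold on chow was −0.23 without clusters over 95% from YAP5SA libraries, −0.30 without cluster 27, −0.33 with cluster 3 and −0.32 with TMM scaling or DESeq2 size factors, and on HFD 0.072, −0.00057 without cluster 27, −0.23 with TMM scaling and −0.28 with DESeq2 size factors. The small-subunit log2 fold on chow was −0.19, −0.20 without cluster 27 and −0.22 with either scaling, and on HFD 0.19, 0.11 without cluster 27, −0.13 with TMM scaling and −0.18 with DESeq2 size factors. The scalings, cluster 27 and cluster 3 were chosen after seeing the data. Of 315 values of 21 named members, 3 changed sign: Mrps18b to −0.012 without the YAP5SA clusters and from −0.020 to 0.275 on leaving out a library, and Mrps22 from −0.13 to 0.42 on leaving out a library. The cause of these changes was not tested. In endothelial-like sums Mrps22 had 8 to 26 UMIs per library.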
